A study of Bassia scoparia with 27 samples.

Results

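The brassinosteroid enzymes described here are 4 of the 45517 transcripts in the expression table of kochia (Bassia scoparia), taken by their annotation from lists of changed genes that the study made on these same samples. For synthesis they are CYP90C1/D1 (Bs.00g245700.m01) and the CYP90A1 transcripts Bs.00g205780.m01 and Bs.00g205800.m01, and for inactivation CYP734A1 (Bs.00g050510.m01). Those lists hold both CYP90A1 transcripts for their fall in Flur-R at 10 h after treatment, CYP734A1 for its rise in 9425 at 3 h and CYP90C1/D1 for its higher level in untreated Flur-R than in 9425, so the calls of these comparisons are not independent evidence. All 4 passed the filter on low values and were tested. Brassinosteroids are plant steroid hormones that promote cell elongation and division in young tissue. They are made from plant sterols by a series of oxidations, most of them carried out by cytochrome P450 monooxygenases of the endoplasmic reticulum, and they are inactivated by other members of the same superfamily. In Arabidopsis, CYP90A1 (CPD) oxidizes early sterol intermediates, CYP90C1 and CYP90D1 hydroxylate the side chain, and CYP734A1 (BAS1) hydroxylates the active hormones and so removes them. The active hormones repress the synthesis genes and induce CYP734A1 in Arabidopsis, and auxin and brassinosteroids act together on many growth genes.

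Young apical leaves, called meristem tissue in the labels, were sequenced by RNA-seq from Flur-R, a line that resists the auxin mimic herbicide fluroxypyr, and from 9425 and J01-S, which are susceptible to it. The comparison asks how transcripts of hormone synthesis and of hormone inactivation moved after treatment, and whether they did so alike in resistant and susceptible plants. Flur-R was bred from survivors of a field population by repeated selection with fluroxypyr and crossing among the survivors. 9425 is an inbred dicamba-resistant line homozygous for a target-site mutation in IAA16, and J01-S is an unselected field population. The study found the same mutant IAA16 allele segregating in Flur-R. Untreated tissue was taken after a water spray, and the same plants were then treated the next day at the label rate for wheat and sampled 3 and 10 h after treatment (HAT). There was no water-sprayed control at 3 or 10 HAT, so treatment cannot be told apart from time of day, from plant age or from the earlier harvest of tissue. Flur-R had 3 untreated libraries, 3 at 3 HAT and 4 at 10 HAT, 9425 had 3, 3 and 4, and J01-S had 2, 2 and 3, for 27 libraries in all. Replicate numbers are plant numbers within a line.

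Values are normalized counts, which are read counts divided by a library's size factor. Their sum over all transcripts ranged from 50872625 to 76916252 per library and was lowest at 10 HAT in each line. Over the 3 markers of green tissue (2 chlorophyll a/b binding proteins and a photosystem I subunit) the summed normalized count ranged from 474855 to 899074 in untreated libraries, from 134358 to 287881 at 3 HAT and from 7997 to 21102 at 10 HAT, so the markers were present in every library and fell with time in all 3 lines. Their part in the results below was not tested, and in bulk tissue fewer cells of a type and less RNA per cell cannot be told apart. The line of 2 libraries at 10 HAT was in doubt. Over 243 transcripts that were at 50 or more in every untreated and 3 HAT library of either 9425 or J01-S and at 5 or fewer in those of the other line, the library labelled 9425 replicate 3 at 10 HAT lay on the 9425 side for 35.4%, whereas the other 3 libraries of that group did so for 100%. The library labelled J01-S replicate 3 at 10 HAT lay on the 9425 side for 100%, against 24.7% and 0% in the other J01-S libraries. Flur-R libraries at 10 HAT lay on that side for 35.8% to 67.5%. The 4 members were left out of this check, although both CYP90A1 transcripts met its limits. Results that rest on these libraries are given with and without them.

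CYP90C1/D1 lies on chromosome 7 (assembly version 2, 5686356 to 5693819, plus strand) in 10 exons with a coding length of 1338 bp, and CYP734A1 on chromosome 8 (89451939 to 89456476, minus strand) in 6 exons with 1275 bp. The CYP90A1 models are neighbours on the plus strand of chromosome 3. Bs.00g205780 runs from 35485782 to 35500266 in 4 exons with 681 bp of coding sequence, and Bs.00g205800 from 35511173 to 35548924 in 6 exons with 573 bp. They are 10906 bp apart, with 1 model on the opposite strand, Bs.00g205790 (35507420 to 35510029), between them. Each is shorter than the other P450 members, and their coding lengths add up to 1254 bp. The longest introns are 11978 bp in Bs.00g205780 and 14463 bp in Bs.00g205800, against 4151 bp in CYP90C1/D1. Whether they are 2 genes or parts of 1 gene was not tested, and they are given separately and as a sum.

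**Figure D1:**
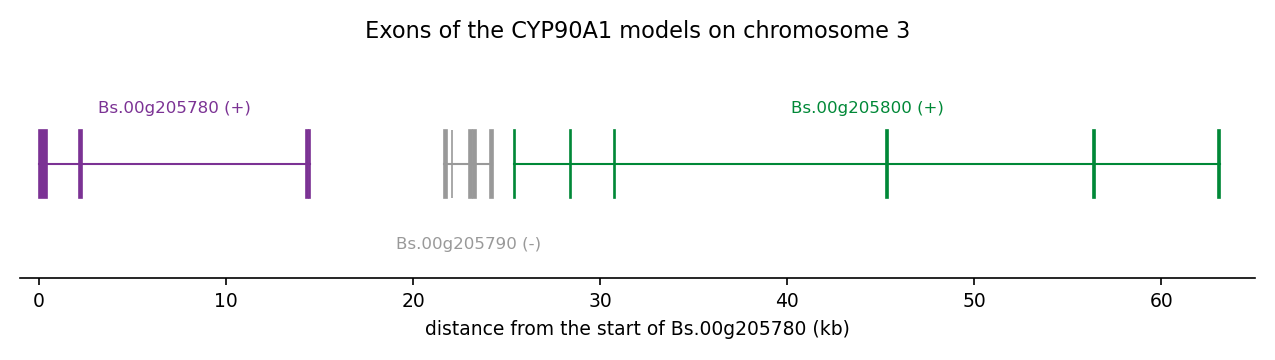
Exons (boxes) and introns (lines) of the CYP90A1 models and of the model between them, drawn to scale against the distance in kb from the start of Bs.00g205780, with the strand in brackets. The CYP90A1 models together span 63143 bp, most of it intron.

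The CYP90A1 transcripts were lower at 10 HAT than before treatment in both lines that expressed them. In Flur-R, the normalized counts of Bs.00g205780 were 1510, 791 and 1198 in untreated plants 2, 3 and 4. They were 306, 204 and 374 in the same plants at 3 HAT, and 37, 25, 25 and 18 in plants 1 to 4 at 10 HAT. The 3 groups did not overlap, and the mean at 3 HAT was 25.3% and at 10 HAT 2.25% of the untreated mean, which is 44.4-fold lower. For Bs.00g205800 the counts were 1151, 547 and 907 untreated, 241, 100 and 337 at 3 HAT, and 20, 35, 25 and 12 at 10 HAT. These groups did not overlap either, and the mean at 10 HAT was 37.8-fold lower than untreated. Of all 29165 transcripts tested, 12.4% lay in the same way below untreated without overlap at 3 HAT, 15.3% at 10 HAT and 9.26% from 3 to 10 HAT in Flur-R, and 4% were called lower at 3 HAT and 10.4% at 10 HAT. Plant 3 had the lowest value of both transcripts before treatment and at 3 HAT.

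In J01-S, Bs.00g205780 was at 1993 and 2638 in untreated plants 1 and 4, and at 453 and 635 in the same plants at 3 HAT. At 10 HAT it was at 38 in replicate 2 and 74 in replicate 4, and at 1 in the library labelled replicate 3. Bs.00g205800 was at 1806 and 1812 untreated, at 554 and 568 at 3 HAT, and at 35, 0 and 49 in replicates 2, 3 and 4 at 10 HAT. Neither transcript overlapped between any pair of time points. With so few libraries this held for 23% of all transcripts from untreated to 3 HAT, 20.2% to 10 HAT and 19.7% from 3 to 10 HAT, and 3.28% of all transcripts were called lower at 3 HAT and 8.78% at 10 HAT. Without the library in doubt the means at 10 HAT were 41.3-fold and 43.1-fold lower than untreated, and with it 61.5-fold and 64.6-fold lower. Over Flur-R and J01-S together, both transcripts were lower at 3 HAT than untreated in 5 of 5 plants sampled at both times (3 of Flur-R and 2 of J01-S). They were lower at 10 HAT than untreated in 4 of 4 plants, and lower at 10 than at 3 HAT in 4 of 4. Of these 4 plants, 3 were of Flur-R and 1, plant 4, was of J01-S.

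At 10 HAT both CYP90A1 transcripts passed the test against untreated in Flur-R (log2 fold change -5.42 ± 1.08 (SE) for Bs.00g205780 and -5.21 ± 1.12 for Bs.00g205800, limma adjusted p = 0.00105 and 0.00193). They also passed in J01-S (-6.99 ± 1.29 and -7.22 ± 1.34, limma adjusted p = 7.6e-04 for each). Without the 2 libraries in doubt the J01-S changes were -5.41 and -5.41 and were still called (limma adjusted p = 5.1e-07 and 2.6e-06).

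At 3 HAT the log2 changes of the CYP90A1 transcripts were -1.98 and -2.04 in Flur-R and -2.09 and -1.69 in J01-S, and none was called with all 27 libraries (limma adjusted p = 0.383, 0.383, 0.491 and 0.650). The spread is shared over all groups and takes in the libraries in doubt. Without them the SE of the Flur-R change of Bs.00g205780 was 0.37 in place of 1.16, and 3 of the 4 changes at 3 HAT were called lower (limma adjusted p = 0.00161 and 0.00481 in Flur-R, 0.00591 for Bs.00g205780 in J01-S), while Bs.00g205800 in J01-S was not (0.0566). With the libraries of Flur-R alone both Flur-R changes at 3 HAT were called as well (limma adjusted p = 0.00929 and 0.0414). Over all alternatives the adjusted p of Bs.00g205780 at 3 HAT in Flur-R ranged from 0.00161 to 0.618.

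From 3 to 10 HAT the fall of the CYP90A1 transcripts was called in J01-S (-4.90 and -5.53, limma adjusted p = 0.0207 and 0.0129, where 4.88% of all transcripts were called lower) and not in Flur-R (-3.44 and -3.17, limma adjusted p = 0.0706 and 0.119, background 4.34%). Without the 2 libraries in doubt it was called in both lines (Flur-R limma adjusted p = 7.3e-06 and 7.5e-05, J01-S -3.31 and -3.73 with 8.9e-04 and 0.00103). With 8 in place of 1 added before the log the Flur-R changes were called as well (limma adjusted p = 0.00265 and 0.00523). With the plant as a block the J01-S calls were lost (limma adjusted p = 0.421 and 0.332) and Bs.00g205780 in Flur-R was called (0.0374). Both J01-S calls were also lost without replicate 1 at 3 HAT (limma adjusted p = 0.134 and 0.119), without replicate 4 at 3 HAT (0.104 and 0.0624) or without the library labelled replicate 3 at 10 HAT alone (0.109 and 0.0635). With the libraries of the line alone they were lost too (limma adjusted p = 0.126 and 0.124), whereas both Flur-R changes from 3 to 10 HAT were called (7.5e-04 and 0.00634).

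**Figure D2:**
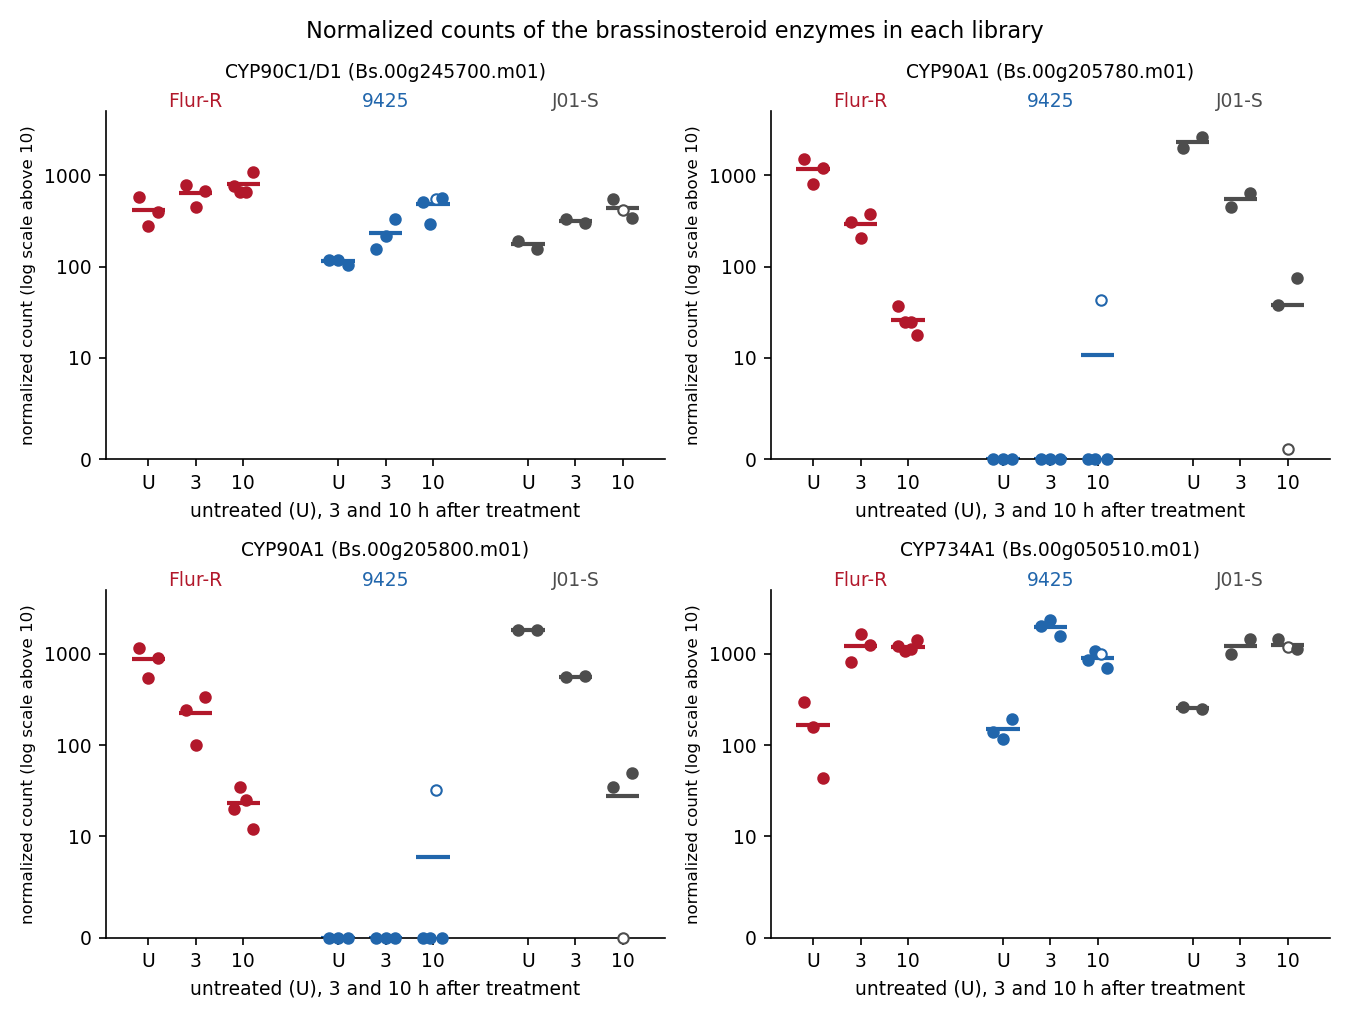
Normalized counts of the 4 transcripts in each library (points) with group means (bars), by line and by time (U untreated, 3 and 10 HAT), on an axis that is linear to 10 and logarithmic above. Open points are the 2 libraries whose line is in doubt. CYP90A1 went down in steps in Flur-R and J01-S and was at 0 in 9 of the 10 libraries labelled 9425. The mean of CYP90C1/D1 was higher at each later time in every line, and CYP734A1 had its main step by 3 HAT.

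In 9425 the CYP90A1 transcripts were listed at 0 in all 3 untreated libraries, all 3 at 3 HAT and replicates 1, 2 and 4 at 10 HAT. The one library above 0 was that labelled 9425 replicate 3 at 10 HAT, with 43 for Bs.00g205780 and 32 for Bs.00g205800. At that time the J01-S libraries not in doubt were at 38 and 74, and at 35 and 49. The Flur-R libraries at 10 HAT ranged from 18 to 37 and from 12 to 35. No response could be tested in 9425 for these transcripts, and no fold is given against a group listed at 0. Before treatment both were higher in Flur-R than in 9425 (limma adjusted p = 2.0e-05 and 6.1e-05) and in J01-S than in 9425 (limma adjusted p = 2.6e-04 and 4.5e-04). Every untreated Flur-R and J01-S library was at 547 or more. Of all transcripts, 2.6% were called higher in untreated Flur-R than in 9425 and 1.55% lower in 9425 than in J01-S. Both transcripts passed the filter on low values only through Flur-R and J01-S. The calls against 9425 followed from its zeros, so that they held in every alternative adds no support. Flur-R and J01-S did not differ by the test before treatment (-1.02 and -1.12, limma adjusted p = 0.854 and 0.838), where 1.05% of all transcripts were called higher and 0.991% lower in Flur-R.

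The zeros lay in a stretch of chromosome 3 with some other transcripts of that pattern. They did not cover the whole stretch, as Bs.00g205790, between the CYP90A1 models, was above 0 in all 27 libraries. Between 35 and 38 Mb, bounds set around the members after their values were seen, 47 transcripts were tested, 11 of them were at 0 in all untreated 9425 libraries, and 6 of these were at 50 or more in every untreated Flur-R and J01-S library. Both CYP90A1 transcripts are among the 6, and the 6 are among 21 such transcripts of all 29165 tested (0.072%). The reads were aligned to the coding sequences of 1 assembly, and whether 9425 lacks these transcripts or carries sequence that aligned poorly was not tested.

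The CYP90A1 transcripts followed each other closely. In the 17 libraries where both were at 10 or more, the ratio of Bs.00g205780 to Bs.00g205800 had a median of 1.31 and ranged from 0.714 to 2.04. Per kb of coding sequence the median ratio was 1.10 (range 0.60 to 1.72), so that their levels per length were close. Bs.00g205780 was the higher of the pair in 14 of the 17 libraries. Their log2 values correlated with Pearson's r = 0.988 across these libraries, which span the same treatment steps. Both were at 0 in 9 libraries, all of them labelled 9425.

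**Figure D3:**
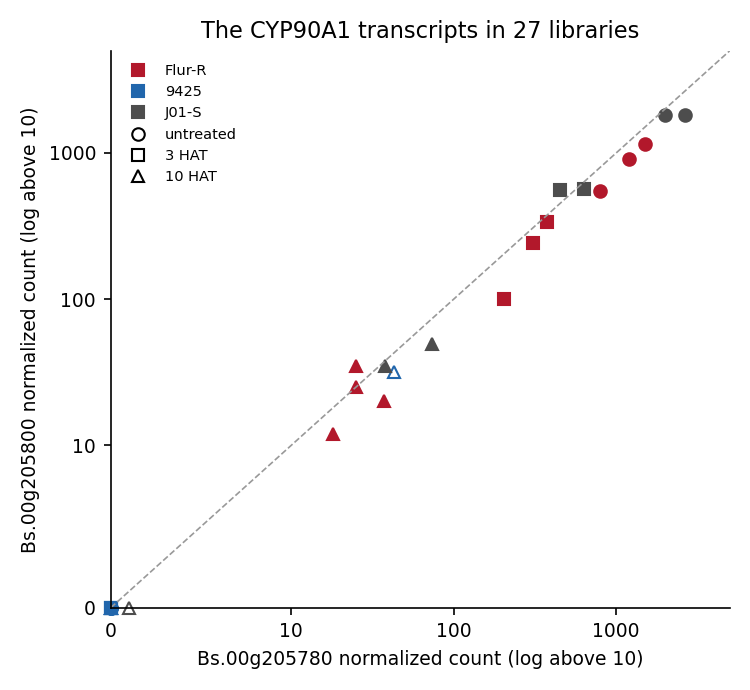
Normalized count of Bs.00g205800 against Bs.00g205780 in 27 libraries, coloured by line and shaped by time, on axes that are linear to 10 and logarithmic above, with the line of equal values dashed and the 2 libraries in doubt open. Within Flur-R and within J01-S the untreated, 3 HAT and 10 HAT libraries follow each other from high to low along the line, and 9 libraries of 9425 lie on the origin.

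CYP90C1/D1, which acts later in synthesis, moved the other way from CYP90A1. It was higher at 10 HAT than before treatment in all 3 lines. In Flur-R its normalized counts were 572, 280 and 397 in untreated plants 2, 3 and 4, 786, 443 and 677 in the same plants at 3 HAT, and 768, 647, 658 and 1090 in plants 1 to 4 at 10 HAT. In 9425 they were 119, 118 and 105 in untreated plants 1, 2 and 3. They were 156, 214 and 332 in plants 2, 3 and 4 at 3 HAT, and 513, 294, 546 and 562 in plants 1 to 4 at 10 HAT, of which 546 is the library in doubt. In J01-S they were 192 and 157 untreated, 331 and 301 at 3 HAT, and 555, 416 and 343 in replicates 2, 3 and 4 at 10 HAT, of which 416 is the library in doubt. In each line the libraries at 10 HAT lay above all untreated ones, and at 3 HAT those of 9425 and J01-S did so, whereas those of Flur-R overlapped with untreated. Of all transcripts, 14.5% (Flur-R), 14.9% (9425) and 21.4% (J01-S) lay above untreated without overlap at 10 HAT, and 11.3% (9425) and 22% (J01-S) at 3 HAT. The shares called higher were 7.64%, 11.3% and 6.96% at 10 HAT, and 4.77%, 3.95% and 4.24% at 3 HAT. Within plants, CYP90C1/D1 was higher in 7 of 7 at 3 HAT and in 7 of 7 at 10 HAT, or 6 of 6 without the plant whose 10 HAT library is in doubt.

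The mean of CYP90C1/D1 at 10 HAT was 1.90-fold the untreated mean in Flur-R, 4.20-fold in 9425 and 2.51-fold in J01-S. Without the libraries in doubt it was 4.00-fold in 9425 and 2.57-fold in J01-S. The log2 changes were 0.95 ± 0.30 (SE), 2.02 ± 0.30 and 1.30 ± 0.36, and all were called (limma adjusted p = 0.0285, 3.5e-05 and 0.0155). At 3 HAT the log2 changes were 0.63 ± 0.32, 0.96 ± 0.32 and 0.86 ± 0.39, and none was called (limma adjusted p = 0.284, 0.0727 and 0.218). From 3 to 10 HAT it rose further in 9425 (1.05 ± 0.30, limma adjusted p = 0.0318, where 3.14% of all transcripts were called higher). In that step the log2 changes were 0.32 in Flur-R and 0.44 in J01-S, and neither was called (limma adjusted p = 0.762 and 0.498).

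The calls of CYP90C1/D1 in Flur-R and J01-S at 10 HAT rested on few libraries. In Flur-R the call was lost without untreated replicate 3 (log2 change 0.70, limma adjusted p = 0.187), untreated replicate 4 (0.0781), or replicate 1 (0.0550) or 4 (0.0933) at 10 HAT, and with the libraries of Flur-R alone (0.0535), and its adjusted p ranged from 7.3e-04 to 0.187 over all alternatives. In J01-S it was lost without untreated replicate 1 (limma adjusted p = 0.0637) or 4 (0.107), without replicate 2 at 10 HAT (0.0632) and with the plant as a block (0.117). In 9425 the rise to 10 HAT was called in 18 of 18 alternatives. The later step in 9425 was lost without the 2 libraries in doubt (limma adjusted p = 0.103), without replicate 2 (0.205) or 3 (0.100) at 3 HAT, without replicate 1 (0.0692), 3 (0.0904) or 4 (0.0867) at 10 HAT, and with the libraries of 9425 alone (0.0943). The change at 3 HAT in 9425 was called without replicate 2 at 3 HAT (limma adjusted p = 0.0322).

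CYP734A1, the inactivating enzyme, rose in all 3 lines by 3 HAT and was still high at 10 HAT. In Flur-R its normalized counts were 294, 156 and 44 in untreated plants 2, 3 and 4, 808, 1628 and 1230 in the same plants at 3 HAT, and 1201, 1068, 1127 and 1395 in plants 1 to 4 at 10 HAT. The untreated Flur-R plants were spread widely, and the plant with the lowest value was no longer the lowest after treatment. In 9425 the counts were 139, 117 and 192 untreated, 2031, 2339 and 1544 in plants 2, 3 and 4 at 3 HAT, and 853, 1076, 981 and 691 in plants 1 to 4 at 10 HAT, of which 981 is the library in doubt. In 9425 all 10 HAT libraries lay below all 3 HAT libraries, as did those of 9.79% of all transcripts. In J01-S they were 260 and 248 untreated, 989 and 1434 at 3 HAT, and 1433, 1177 and 1112 in replicates 2, 3 and 4 at 10 HAT, of which 1177 is the library in doubt. No treated library of any line was as low as its untreated libraries, which at 3 HAT held in Flur-R for 11.7% of all transcripts and otherwise for the shares given with CYP90C1/D1. Within plants CYP734A1 was higher in 7 of 7 at both times, or 6 of 6 at 10 HAT without the plant whose library is in doubt.

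The mean of CYP734A1 at 3 HAT was 7.42-fold the untreated mean in Flur-R, 13.2-fold in 9425 and 4.77-fold in J01-S, and at 10 HAT it was 7.27-fold, 6.03-fold and 4.88-fold (5.85-fold in 9425 and 5.01-fold in J01-S without the libraries in doubt). These rises are read against the same shares of all transcripts called higher as for CYP90C1/D1. The log2 changes at 3 HAT were 3.2 ± 0.42 (SE), 3.72 ± 0.42 and 2.23 ± 0.52 (limma adjusted p = 4.7e-05, 2.2e-05 and 0.0103). At 10 HAT they were 3.22 ± 0.40, 2.59 ± 0.40 and 2.28 ± 0.47 (limma adjusted p = 5.7e-06, 5.1e-05 and 0.00217). In Flur-R the log2 difference between 3 and 10 HAT was 0.02, in 9425 it was -1.13 and in J01-S 0.05, none of them called (limma adjusted p = 1, 0.0855 and 0.968). In 9425 5.06% of all transcripts were called lower in that step, and with the libraries of that line alone the difference of CYP734A1 was called as well (limma adjusted p = 0.0330, the lowest over all alternatives, the highest being 0.257). The 95% interval of the difference was -0.80 to 0.85 in Flur-R, -1.95 to -0.30 in 9425 and -0.94 to 1.04 in J01-S.

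The rise of CYP734A1 in all 3 lines and of CYP90C1/D1 in 9425 and J01-S at 10 HAT was called without the 2 libraries in doubt as well. In Flur-R and 9425 the rise of CYP734A1 was called at both times in every alternative. For 9425 at 3 HAT this is not independent evidence, as the study listed CYP734A1 for that rise. In J01-S the call at 3 HAT was lost without untreated replicate 1 (limma adjusted p = 0.0516) or 4 (0.0856) and without replicate 4 at 3 HAT (0.0926), and the call at 10 HAT was lost with the plant as a block (0.127).

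**Figure D4:**
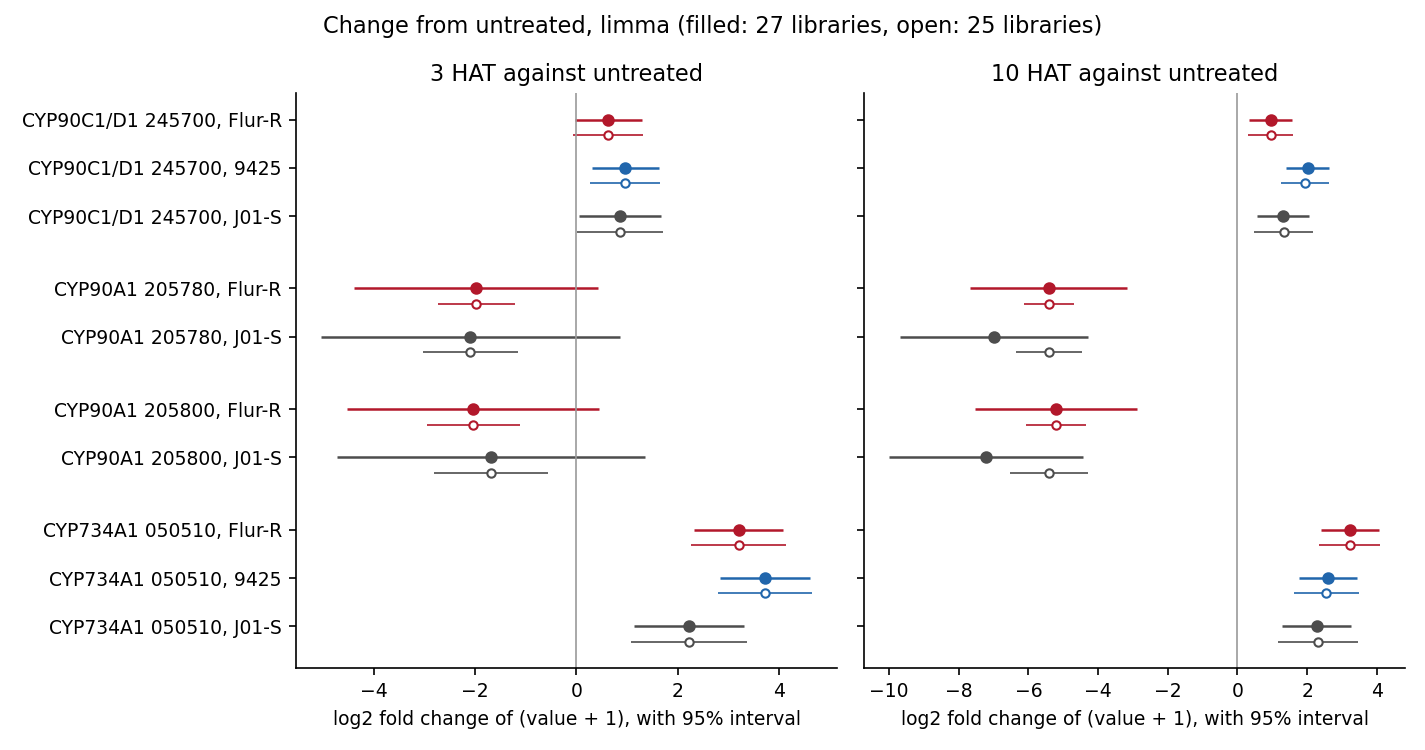
Log2 fold change against untreated at 3 HAT (left) and 10 HAT (right) for each transcript and line, with the 95% interval from limma, from all 27 libraries (filled) and from the 25 left without the libraries in doubt (open). CYP734A1 and CYP90C1/D1 lie to the right of 0 and the CYP90A1 transcripts to the left, with intervals for CYP90A1 that are narrower in the smaller set.

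The level of inactivation relative to synthesis changed over time, but not in the same way for each synthesis gene. The balance was taken in each library as log2(CYP734A1 + 1) minus log2(CYP90C1/D1 + 1), so that a higher value means more CYP734A1 for a given CYP90C1/D1, and no test was made on it. It was -1.65 ± 1.30 (SD, n = 3) in untreated Flur-R, 0.93 ± 0.92 (n = 3) at 3 HAT and 0.62 ± 0.19 (n = 4) at 10 HAT. In 9425 it was 0.36 ± 0.45 (n = 3), 3.12 ± 0.79 (n = 3) and 0.94 ± 0.66 (n = 4). In J01-S it was 0.55 ± 0.16 (n = 2), 1.91 ± 0.48 (n = 2) and 1.52 ± 0.16 (n = 3). Without the libraries in doubt the values at 10 HAT were 0.97 ± 0.81 (n = 3) in 9425 and 1.53 ± 0.23 (n = 2) in J01-S. The untreated Flur-R value was pulled down by replicate 4 at -3.14, next to -0.96 and -0.84 in the others.

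The balance rose from untreated to 3 HAT in 7 of 7 plants. From 3 to 10 HAT it fell in 6 of 7, or 5 of 6 without the plant whose 10 HAT library is in doubt. It was above the untreated value at 10 HAT in 6 of 7 plants, and in 6 of 6 without the plant whose 10 HAT library is in doubt. In Flur-R the change from untreated was 2.57 at 3 HAT and 2.27 at 10 HAT, in 9425 it was 2.76 and 0.58, and in J01-S 1.37 and 0.97. In 9425 the change at 10 HAT was no larger than the spread within groups (0.59). With the sum of the CYP90A1 transcripts in place of CYP90C1/D1, the Flur-R change was 5.19 at 3 HAT and 8.55 at 10 HAT, and the J01-S change 4.13 and 9.56, or 7.73 at 10 HAT without the library in doubt, below the Flur-R value. Between 3 and 10 HAT the balance against CYP90C1/D1 was thus lower in most plants, and that against CYP90A1 had a higher mean in both lines.

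**Figure D5:**
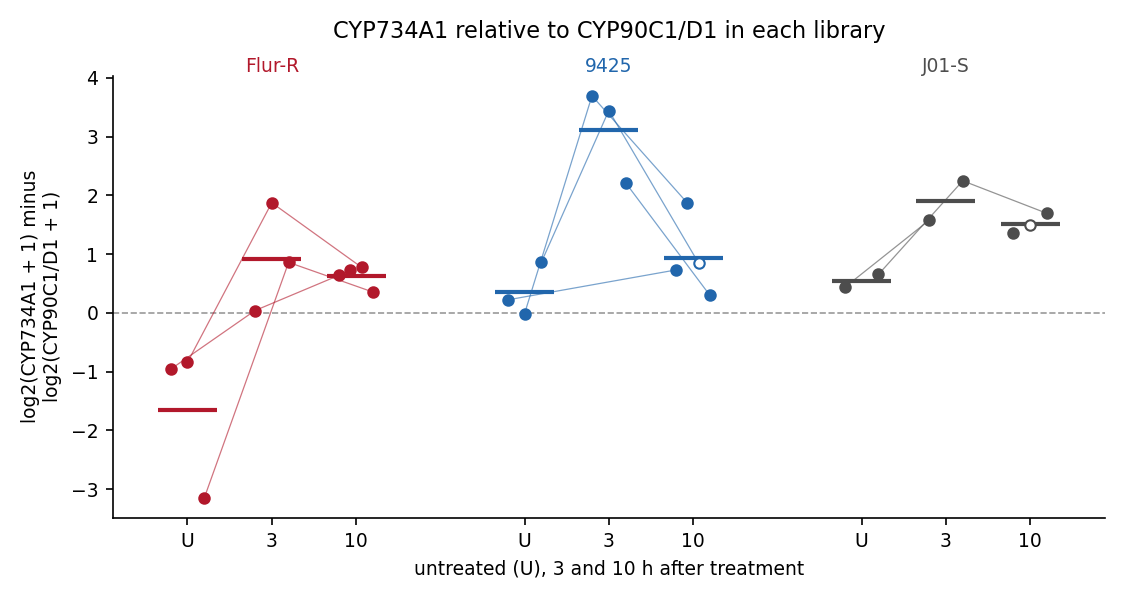
Log2 of CYP734A1 plus 1 minus log2 of CYP90C1/D1 plus 1 in each library, by line and time (U untreated, 3 and 10 HAT), with group means as bars and thin lines joining libraries of 1 plant. Open points are the libraries whose line is in doubt. Lines rise from untreated to 3 HAT in each of the 7 plants sampled at both times, and most go down from 3 to 10 HAT.

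Per kb of coding sequence, the ratio of the mean normalized counts of CYP734A1 to CYP90C1/D1 in Flur-R was 0.415 untreated, 2.02 at 3 HAT and 1.59 at 10 HAT. It was 1.37, 8.84 and 1.97 in 9425 and 1.53, 4.02 and 2.97 in J01-S. Against Bs.00g205780 the same ratio of CYP734A1 was 0.0754, 2.22 and 24.4 in Flur-R and 0.0586, 1.19 and 17.6 in J01-S. Per length, Bs.00g205780 was therefore the most abundant of the 3 before treatment and the least abundant at 10 HAT in both lines. Untreated Bs.00g205780 was 5.50 times as high as CYP90C1/D1 per kb in Flur-R and 26.1 times in J01-S. The ratios at 10 HAT take in the libraries in doubt. In J01-S the 10 HAT means per kb of CYP734A1, CYP90C1/D1 and Bs.00g205780 were 973, 327 and 55.3 with that library. Without it they were 998, 336 and 82.2. In 9425 those of CYP734A1 and CYP90C1/D1 were 706 and 358 with its library in doubt, and 685 and 341 without it.

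Before treatment Flur-R and 9425 differed by the test in CYP90C1/D1, and 9425 differed from both other lines in CYP90A1. No lines differed by the test in CYP734A1. The mean normalized count of CYP90C1/D1 was 416 ± 147 (SD) over 3 untreated libraries of Flur-R, 114 ± 7.81 over 3 of 9425 and 175 ± 24.7 over 2 of J01-S. Flur-R was above 9425 (log2 difference 1.80 ± 0.32 (SE), limma adjusted p = 0.0027), and this call held in 17 of 17 alternatives. The study listed CYP90C1/D1 for this same difference, so neither the call nor its holding is independent evidence. The difference of Flur-R from J01-S was 1.2 ± 0.36 and was not called (limma adjusted p = 0.101), with every untreated Flur-R library above both of J01-S, as for 12.6% of all transcripts. Between 9425 and J01-S it was -0.60 ± 0.36 (limma adjusted p = 0.408). The differences in untreated CYP734A1 were -0.20 between Flur-R and 9425, -1.0 between Flur-R and J01-S and -0.79 between 9425 and J01-S (limma adjusted p = 0.871, 0.416 and 0.418), with intervals of -1.09 to 0.68, -1.98 to -0.01 and -1.78 to 0.20. Without untreated Flur-R replicate 4, at 44, the first of these was 0.55.

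In order of mean level, CYP90C1/D1 ran from untreated 9425 (114) through untreated J01-S (175), 9425 at 3 HAT (234), J01-S at 3 HAT (316), untreated Flur-R (416), J01-S at 10 HAT (438), 9425 at 10 HAT (479) and Flur-R at 3 HAT (635) to Flur-R at 10 HAT (791). Untreated Flur-R thus lay beside the treated susceptible groups, and the ranges of these neighbours overlapped. CYP734A1 split into the untreated groups, with means from 149 to 254, and the treated ones, with means from 900 to 1971, and the highest was 9425 at 3 HAT.

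The difference of response between lines was tested for each pair of lines at each time. None of the 16 tests of members passed (limma), 2 of them had an unadjusted p under 0.05, and no other tool was run. These were CYP90C1/D1 at 10 HAT, for which the response in Flur-R minus that in 9425 was -1.07 (95% interval -1.94 to -0.19, limma adjusted p = 0.635), and CYP734A1 at 3 HAT, for which 9425 minus J01-S was 1.5 (0.10 to 2.90, limma adjusted p = 1). For CYP90A1 at 10 HAT the response in Flur-R minus that in J01-S was 1.58 for Bs.00g205780 and 2.01 for Bs.00g205800, with intervals of -1.94 to 5.09 and -1.62 to 5.64. Without the libraries in doubt these differences were -0.0087 and 0.21. Over all transcripts these tests called 0.0309% (Flur-R minus 9425), 0% (Flur-R minus J01-S) and 0% (9425 minus J01-S) at 3 HAT, and 0.0377%, 0.0103% and 0.00343% at 10 HAT.

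The transcripts whose log2 values followed each member most closely over the 27 libraries were taken from 20612 transcripts with a mean of at least 50. As all libraries share the same treatment steps, these correlations are a description. For CYP734A1 they were Bs.00g107340 (Pearson's r = 0.951), described as related to the auxin-responsive gene IAA1, Bs.00g307250 (0.936), which has no description, and Bs.00g364640 (0.925), described as a response regulator receiver. For the CYP90A1 transcripts the closest was the other member of the pair (0.996), followed by Bs.00g206260 for both (0.969 and 0.966), Bs.00g205950 for Bs.00g205780 (0.963) and the cytochrome P450 Bs.00g206320 for Bs.00g205800 (0.962). All lie on chromosome 3, and the 3 that are not members lie 637 to 1531 kb from the member they follow. The correlations with CYP90A1 also take in the 9425 libraries in which it was at 0. Bs.00g206320 had means of 0.667 and 0 in 9425 untreated and at 3 HAT, against 10980 and 20967 in untreated Flur-R and J01-S. How much of each correlation comes from this difference between lines was not tested. For CYP90C1/D1 they were Bs.00g009220 (0.917), Bs.00g352690 (0.913) and Bs.00g251100 (0.912), none of which has a description.

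Other cytochrome P450s and other hormone enzymes named in the study give the surroundings of these changes. They were taken from lists the study chose on these samples, so their direction is not independent evidence. Of 11 other P450s, 2 rose and 3 fell at 10 HAT in Flur-R, 2 rose and 2 fell in 9425, and 1 rose and 3 fell in J01-S, with median log2 changes of -0.07, 0.39 and -0.87 against 0.03, 0.05 and 0.05 over all transcripts (in 9425 12.4% of all transcripts were called lower). Those called in all 3 lines were a CYP71D10-like transcript (Bs.00g057300), which rose by 6.66, 5.33 and 4.05 on the log2 scale, and a CYP77A4-related transcript (Bs.00g091650), which fell by 1.47, 1.74 and 1.74. Their adjusted p-values (limma) ranged from 4.7e-06 to 0.00935. At 3 HAT, 1 of the 11 rose and 2 fell in Flur-R, 2 rose and 2 fell in 9425 (background 3.33% lower), and 1 rose and 2 fell in J01-S. Of 6 other hormone enzymes, 3 rose at 3 HAT in each line, namely GH3.2, ACS and gibberellin 2-beta-dioxygenase 4, which inactivates gibberellins. At 10 HAT 2 rose in each line, and in Flur-R 1 NCED2 transcript fell. Called in all 3 lines at 10 HAT were GH3.2 (Bs.00g477580), which conjugates auxin to amino acids and rose by 8.71, 9.26 and 7.75, and ACS (Bs.00g478760), which makes the precursor of ethylene and rose by 8.97, 6.31 and 8.48 (limma adjusted p at most 1.0e-06). CYP734A1 rose at both times beside GH3.2 and ACS. Gibberellin 2-beta-dioxygenase 4 was not called at 10 HAT (log2 change -0.40, 0.28 and 0.60), and no NCED transcript was called higher at either time.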

How the data were processed

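The authors aligned BGISEQ reads to the coding sequences of kochia genome assembly version 2 with HISAT2 (2.1.0 in the submitters' processing notes), counted them per transcript with featureCounts and divided by DESeq size factors, with DESeq2 1.28.1 as their test. These deposited values were treated as a score, being normalized counts that the authors had rounded to whole numbers, so read counts could not be recovered and no count model was run, although the study used one. Gene models and coordinates are those deposited for assembly version 2. All 27 columns were used.

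Values were tested as log2(value + 1) with limma 3.58.1 (R 4.3.3) and a variance trend, with 1 mean for each of 9 groups of line and time. Transcripts with at least 10 in at least 2 libraries were kept (29165 tested, 16352 not), p-values were adjusted by Benjamini-Hochberg within each comparison, and calls needed an adjusted p below 0.05 with an absolute log2 fold change above 0.5. The added 1 understates changes of low transcripts. The procedure was tested on simulated data with independent libraries, which does not cover correlation between libraries of 1 plant. Replicates are plants, and the same plants were sampled at each time. Deviations from group means of libraries of 1 plant correlated (median r 0.722, 0.460 and 0.607 for Flur-R, 9425 and J01-S), against -0.275, -0.158 and -0.222 for different plants. Subtracting the mean of a small group itself pulls the values for different plants below 0, so they are not a neutral baseline. As libraries of 1 plant correlated, the plant block is given where it changes a call. In J01-S only plant 4 was sampled both untreated and at 10 HAT.

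Genes named are the 4 members, listed genes called at 10 HAT in all lines, and the 3 transcripts most correlated with each member. The members and lists were chosen with earlier results of these data known, and all 4 members stand in the study's lists of changed genes. The alternatives were 0.5 or 8 added, no filter or a filter at 50, scaling to totals, quantile normalization, omission of the 2 libraries in doubt, sums by locus or over CYP90A1, each library left out, fits to one line or to untreated libraries, and the plant block. Some plants of Flur-R and J01-S were in early flower, and which libraries they gave is not known here. Figures were drawn with matplotlib 3.10.9.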

Additional observations from a re-analysis of the deposited data

Results flagged for a closer look

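Of 8 combinations of a member and a group of 4 libraries examined, 2 had a library far from the others. Chance alone sets such a library apart in about 1 of 20 groups of normally distributed values. That rate does not apply to these 2, because next to values that are all 0 any count above 0 is flagged. Both are the library labelled 9425 replicate 3 at 10 HAT, at 43 for Bs.00g205780 and 32 for Bs.00g205800, next to 0 in each of the other 3. They are not separate observations, because the transcripts are neighbours that follow each other and the library is one whose line is in doubt. No difference of response between lines was called for a member.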

How the results depend on the processing

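Of 30 tests of responses of members, 16 were called, of 12 tests before treatment 5, and of 16 tests of differences of response 0. The calls before treatment were those of CYP90A1 against 9425, which follow from its zeros there, and that of CYP90C1/D1. The latter was Flur-R against 9425, the difference for which the study listed it. Of all 29165 transcripts, 1585 to 6927, 594 to 957 and 0 to 11 (0 to 0.0377%) were called in either direction per comparison. In the single directions given in the report, 3.14 to 12.4% were called for responses and 0.991 to 2.6% before treatment. With each library left out in turn the counts of member calls were 13 to 16, 5 to 5 and 0 to 0. Among 622 single results under the other alternatives, 594 kept their direction and their side of the threshold, 14 became called, 9 were no longer called and 5 changed sign, and of 424 with 1 library left out 385, 1, 21 and 17 did so. Those 5 were not called. They were the 10 HAT response of Bs.00g205780 in Flur-R minus J01-S, at -0.0087 without the 2 libraries in doubt and -0.43 with the plant block (1.58 with all libraries and no block), CYP734A1 from 3 to 10 HAT in J01-S at -0.22 and CYP90C1/D1 at 3 HAT in 9425 minus J01-S at -0.022, both with the plant block, and CYP90A1 at 3 HAT in Flur-R minus J01-S at -0.093 with its loci summed. The cause was not tested. Apart from the calls named in the report, the plant block changed no call of a member.

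The balance moved by more than the spread only with the CYP90A1 sum in place of CYP90C1/D1, to 5.19 and 8.55 in Flur-R and 4.13 and 9.56 in J01-S at 3 and 10 HAT (7.73 at 10 HAT without the library in doubt, an alternative chosen after seeing the data), since another gene was measured. With each library left out, its change at 3 HAT was 1.82 to 3.02 in Flur-R, 2.47 to 3.21 in 9425 and 1.03 to 1.70 in J01-S, and at 10 HAT 1.52 to 2.68, 0.27 to 0.83 and 0.86 to 1.08. Uncalled results that changed sign without 1 library ranged, for CYP734A1, from -0.81 to 0.55 (untreated Flur-R against 9425), -1.27 to 0.082 and -0.12 to 1.23 (response in Flur-R minus 9425 at 3 and 10 HAT), -0.25 to 0.26 (Flur-R, 3 to 10 HAT) and -0.22 to 0.32 (J01-S, 3 to 10 HAT). For CYP90C1/D1 at 3 HAT they ranged from -0.18 to 0.36 (9425 minus J01-S) and -0.48 to 0.029 (Flur-R minus J01-S). For CYP90A1 in Flur-R minus J01-S they ranged from -0.14 to 0.36 and -0.72 to 0.15 at 3 HAT and from -0.0087 to 2.61 at 10 HAT.

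Over all alternatives the number of transcripts called ranged from 1618 to 4257 at 3 HAT in Flur-R (2558 in the report), 829 to 3411 in 9425 (2123) and 652 to 4038 in J01-S (2193), and at 10 HAT from 3961 to 8022 (5250), 5805 to 8795 (6927) and 2065 to 6479 (4590). From 3 to 10 HAT it ranged from 1092 to 2777 (1585), 1191 to 4774 (2391) and 1 to 4828 (2825, and 1 with the plant block). Before treatment it ranged from 275 to 1533 (957), 193 to 889 (594) and 61 to 1656 (716), and for differences of response from 0 to 127 (0 to 11). Scaling to library totals moved the median log2 change of all transcripts by 0.41, 0.22 and 0.38 at 10 HAT, and the share of calls that were higher from 42.4, 47.8 and 44.2% to 77.9, 66.1 and 76.6%, from 54.3 and 54.2% to 70.6 and 69.8% at 3 HAT in Flur-R and 9425, and from 20.2, 38.3 and 49.7% to 69.3, 64.1 and 81.2% from 3 to 10 HAT (38.5% in Flur-R and 62.7% in J01-S with quantile normalization), while every called member kept its direction. It also brought CYP90C1/D1 at 3 HAT in 9425 to a call (limma adjusted p = 0.0343).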
